A study of Drosophila melanogaster with 7 samples.

Results

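The genes described are the fly metallothioneins *MtnA* and *MtnB*, their activator *MTF-1*, and the iron genes *Fer1HCH*, *Fer2LCH*, *Tsf1* and *Mvl*. They were taken as all array probe sets, controls excluded, whose platform gene symbol is one of these 7 names. This gave 8 of 13966 probe sets and 7 of 10846 genes, with 2 probe sets for *MTF-1*. They were chosen by the mutant and wild-type log2 levels of *MtnA* and *MtnB*, which differed in opposite directions, so the differences of these genes are given as descriptions without a test.

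The study measured 4 pools of pof mutant larvae and 3 pools of wild-type larvae of *Drosophila melanogaster*, each of 400 whole first-instar larvae of mixed sex. PolyA RNA of each pool was hybridised to 1 single-colour Affymetrix array. *Pof* encodes a protein that coats chromosome 4, and none of the 7 genes lies on that chromosome. The allele, the genetic background and the age of the larvae within the instar are not given by the labels, and mutant and wild-type stocks may differ in more than *Pof*. The submitters call the pools biological replicates and do not say how they were raised.

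Metallothioneins are small proteins rich in cysteine that bind copper, zinc and cadmium and so keep free metal ions low. In flies their genes are switched on by MTF-1, a zinc finger factor that binds metal response elements. *MtnA* responds most to copper and *MtnB* to cadmium. Insect ferritin stores iron in the secretory pathway as a shell of heavy and light chains, encoded by *Fer1HCH* and *Fer2LCH*, which are neighbours on 3R. Transferrin, from *Tsf1*, carries iron through the haemolymph, and Mvl is the fly relative of the NRAMP transporters that bring iron and other divalent metals into cells. Ferritin and copper storage are prominent in the larval midgut.

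Values are log2 expression values of the authors, made with RMA, which corrects background, equalises the arrays and combines the probes of a probe set. A difference of 1 is a doubling. Array medians ran from 6.01 to 6.06. Levels of different probe sets cannot be compared, because their probes bind with different strength. Some arrays held less of the 5' part of long transcripts than others. The 3' minus 5' signal, averaged over control probe sets for actin, eIF-4a and GAPDH, was 3.22, 3.95, 2.12 and 2.19 on pof mutant replicates 1 to 4, against 4.32, 2.02 and 1.92 on wild type replicates 1 to 3. Wild type replicate 1 had the largest value and stood apart from the other wild-type arrays, while mutant replicates 1 and 2 were also high. The controls did not rank these arrays alike. Wild type replicate 1 was highest for eIF-4a (5.09) and GAPDH (4.78). For actin it was 3.08, below mutant replicates 1 (3.74) and 2 (3.67). The *Pof* probe set itself was near the array's floor, at 3.44 ± 0.04 in the mutant (SD, n = 4) and 3.77 ± 0.13 in wild type (SD, n = 3), differing by -0.33 ± 0.07 on the log2 scale (SE; adjusted p = 0.323 by limma).

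*MtnA* was higher and *MtnB* lower in the pof mutant. *MtnA* (143276_at, 3R) had log2 values of 12.49, 12.48, 12.09 and 12.00 on mutant replicates 1 to 4, against 12.05, 11.53 and 11.44 on wild type replicates 1 to 3. The groups overlapped through 1 array, since wild type replicate 1 lay just above mutant replicate 4. The means were 12.26 ± 0.26 in the mutant (SD, n = 4) and 11.67 ± 0.33 in wild type (SD, n = 3), a log2 difference of 0.59 ± 0.18 (SE) or 1.51-fold. This probe set was among the brightest of the array, at the 99.2 percentile of mean level, where RMA values of strong signals can be compressed by saturation of the probes.

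*MtnB* (143277_at, 3R) had log2 values of 6.93, 7.11, 6.60 and 6.63 on mutant replicates 1 to 4, against 8.26, 7.51 and 7.37 on wild type replicates 1 to 3. All mutant arrays lay below all wild-type arrays. The means were 6.82 ± 0.24 in the mutant (SD, n = 4) and 7.71 ± 0.48 in wild type (SD, n = 3), a log2 difference of -0.89 ± 0.23 (SE). The wild-type level was 1.85-fold that of the mutant. It was the only one of the 8 probe sets whose groups did not overlap, where 6% of all probe sets did not overlap in either direction. None of the 8 passed limma's threshold of adjusted p under 0.05, as 0.0644% of all probe sets did. Both counts come from the contrast that chose the genes, and nothing is read from them. Of all probe sets, 1.02% had a difference at least as large as that of *MtnA*, in either direction, and 0.286% one at least as large as that of *MtnB*. These shares rank the differences by which the genes were chosen, so they are no test and nothing is read from them either.

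**Figure D1:**
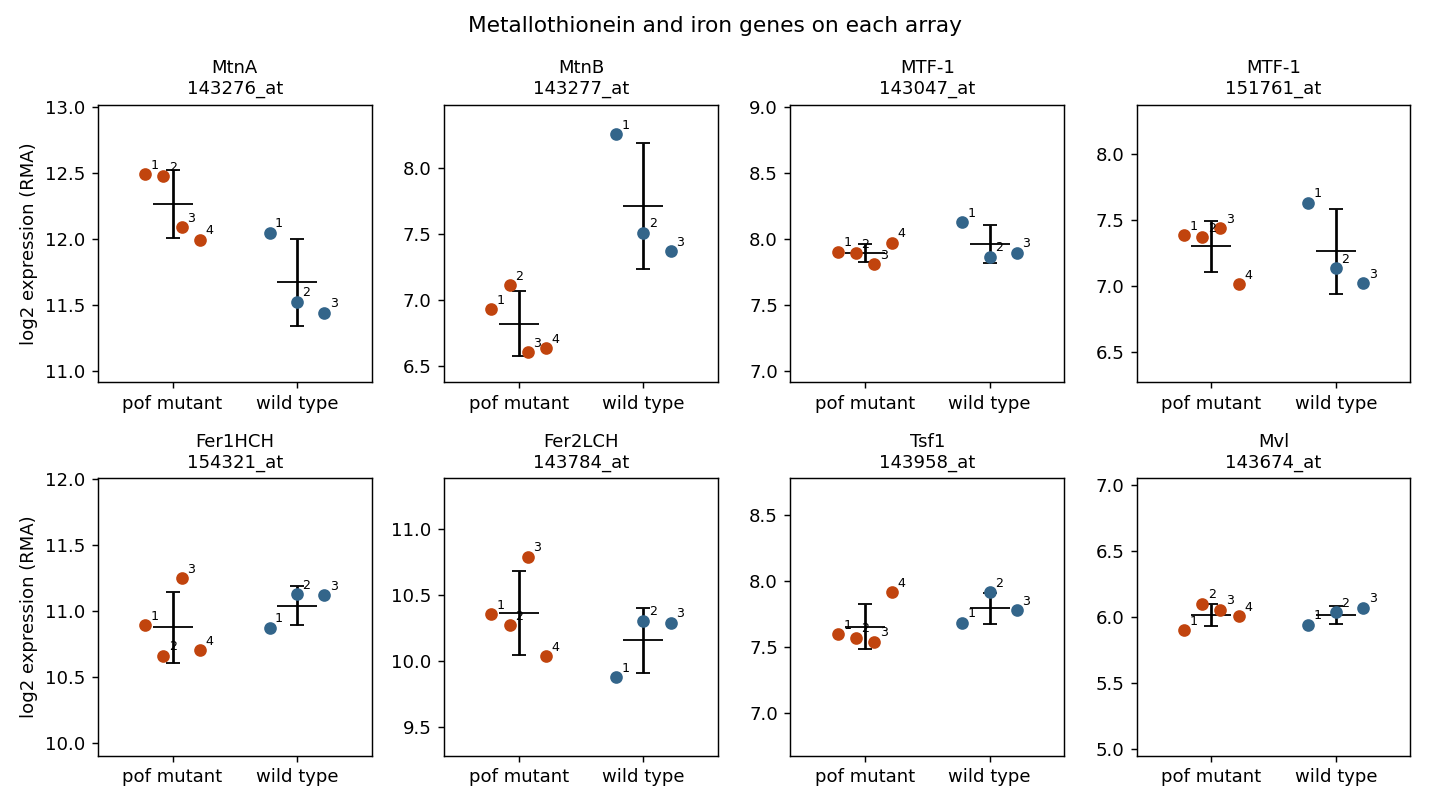
Log2 expression (RMA) of the 8 probe sets on each array, pof mutant on the left and wild type on the right of each panel. Points are arrays with their replicate number, horizontal bars are means and error bars are SD (n = 4 and n = 3), and each panel spans the same range on its vertical axis. *MtnA* sits higher in the mutant with 1 overlapping array (12.00 in the mutant, 12.05 in wild type), *MtnB* sits lower with no overlap (at most 7.11 in the mutant, at least 7.37 in wild type), and the other panels overlap.

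Within each group the 2 metallothioneins moved in the same direction, against the opposite directions between the groups. Mutant replicates 1 and 2 were above the mutant mean by 0.23 and 0.21 for *MtnA* and by 0.11 and 0.29 for *MtnB*. Mutant replicates 3 and 4 were below it for both genes. In wild type, replicate 1 was above the mean by 0.38 for *MtnA* and 0.55 for *MtnB*, and replicates 2 and 3 were below it for both. The arrays above their group mean were those with a large 3' minus 5' signal of the controls.

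The slope on that 3' minus 5' signal was fitted over all probe sets with the group kept in the model, so it uses the spread within the groups, which did not serve to choose the genes. This fit was added after the data were seen. *MtnA* rose by 0.25 ± 0.04 log2 units per unit of 3' minus 5' signal (SE; limma, adjusted p = 0.00551). *MtnB* rose by 0.32 ± 0.03 (SE; limma, adjusted p = 0.00141). These were 2 of the 8 probe sets, 25%, close to the 28.1% of all probe sets with a slope past the threshold, so the count says nothing particular about these genes. Without wild type replicate 1 the slopes were 0.27 and 0.28, with limma adjusted p of 0.167 and 0.105, and 1 probe set of all passed.

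With the 3' minus 5' signal held in the fit, the difference between pof mutant and wild type kept its size and its error shrank. It was 0.56 ± 0.07 for *MtnA* and -0.93 ± 0.06 for *MtnB* (SE). In that fit 2 of the 8 probe sets, these 2, passed limma's threshold, beside 0.616% of all probe sets. The contrast is again the one that chose the genes, and nothing is read from the count or from the smaller error. The slopes behind this fit did not pass the threshold without wild type replicate 1.

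The distance between the 2 genes on an array separated the groups more tightly than either gene. *MtnA* minus *MtnB* was 5.56, 5.36, 5.49 and 5.36 on mutant replicates 1 to 4, against 3.79, 4.02 and 4.08 on wild type replicates 1 to 3. The means were 5.45 ± 0.10 in the mutant (SD, n = 4) and 3.96 ± 0.15 in wild type (SD, n = 3), so the balance between the genes differed by 1.48 log2 units, or 2.79-fold. These SDs are smaller than those of the single genes. The distance itself is no ratio of transcripts, because the probe sets differ, and only its change between arrays can be read. It restates the opposite directions by which the genes were chosen and has no test.

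**Figure D2:**
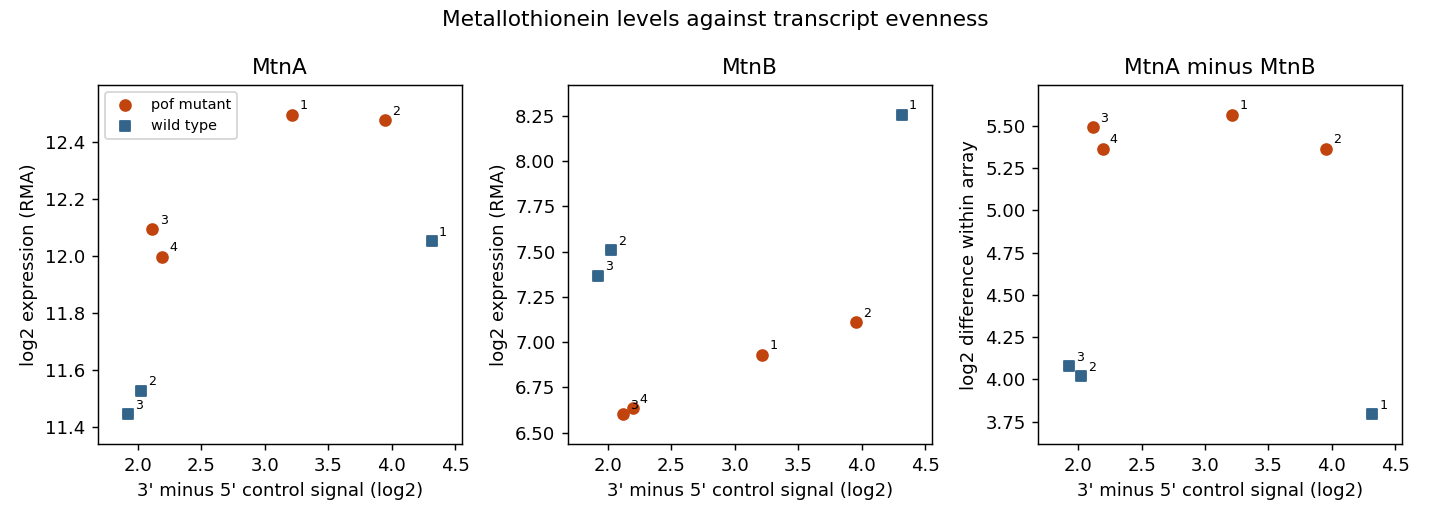
*MtnA*, *MtnB* and their distance on each array (log2 units, vertical axes) against the mean 3' minus 5' signal of 3 control transcripts (log2, horizontal axes). Circles are pof mutant and squares wild-type arrays, numbered by replicate. Both genes are higher on arrays with a large 3' minus 5' signal within each group, and the distance is 5.36 to 5.56 in the mutant and 3.79 to 4.08 in wild type.

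The direction of both genes stayed the same without any single array and in the fits tried. These fits reuse the contrast that chose the genes, so the kept direction is no test. Leaving out each array in turn gave differences of 0.48 to 0.78 for *MtnA* and -1.06 to -0.62 for *MtnB*, and for their distance 1.40 to 1.54. The outer values came from the wild-type arrays. Without wild type replicate 1 *MtnA* differed by 0.78 and *MtnB* by -0.62, and without wild type replicate 3 they differed by 0.48 and -1.06.

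**Figure D3:**
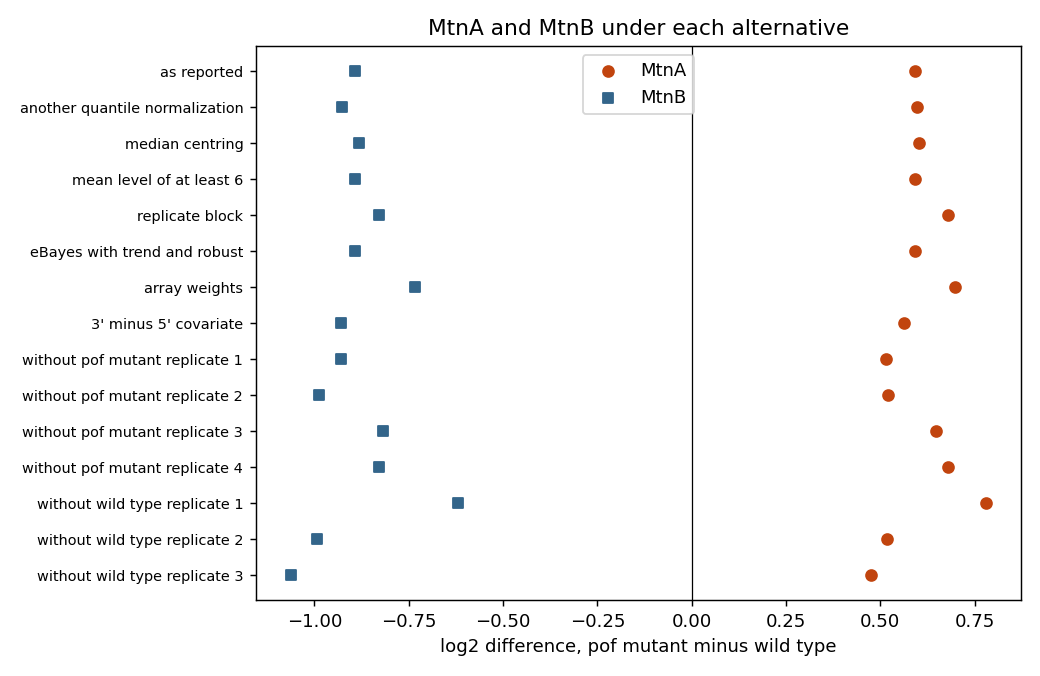
Log2 difference, pof mutant minus wild type (horizontal axis), of *MtnA* (circles) and *MtnB* (squares) as reported and under each of 14 alternatives (rows). *MtnA* stays to the right of 0 (0.48 to 0.78) and *MtnB* to the left (-1.06 to -0.62) in every row.

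*MTF-1*, the activator of both metallothionein genes, hardly differed between the groups. Probe set 143047_at (3L) had 7.91, 7.89, 7.81 and 7.98 on mutant replicates 1 to 4, against 8.13, 7.87 and 7.90 on wild type replicates 1 to 3, a log2 difference of -0.07 ± 0.08 (SE). The groups overlapped, with wild type replicate 1 the highest array. Probe set 151761_at had 7.39, 7.37, 7.44 and 7.02 on mutant replicates 1 to 4, against 7.63, 7.14 and 7.02 on wild type replicates 1 to 3, a log2 difference of 0.04 ± 0.16 (SE). Mutant replicate 4 was low, close to wild type replicate 3, and wild type replicate 1 was again the highest. Both differences lay within their standard errors, with opposite signs. Leaving out each array in turn gave -0.12 to 0.01 for 143047_at and -0.08 to 0.22 for 151761_at. Both upper values came without wild type replicate 1. An mRNA level does not report how active the protein is, since metal regulates MTF-1 after translation.

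The 2 ferritin chains had similar profiles over the arrays of each group. *Fer1HCH*, the heavy chain with the iron-oxidising site (154321_at, 3R), had 10.89, 10.66, 11.25 and 10.71 on mutant replicates 1 to 4, against 10.88, 11.13 and 11.12 on wild type replicates 1 to 3. *Fer2LCH*, the light chain (143784_at, 3R), had 10.35, 10.27, 10.79 and 10.03 on mutant replicates 1 to 4, against 9.87, 10.30 and 10.29 on wild type replicates 1 to 3. Mutant replicate 3 was the highest array for both chains, and wild type replicate 1 was the lowest wild-type array for both. These had the smallest mutant and the largest wild-type 3' minus 5' signal. The slopes on that signal were -0.13 ± 0.06 for *Fer1HCH* and -0.14 ± 0.08 for *Fer2LCH* (SE; limma, adjusted p = 0.147 and 0.218). Without mutant replicate 4 the limma adjusted p was 0.0349 and 0.0113, in a fit where 3938 of all probe sets passed.

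The groups overlapped for each chain. The log2 difference was -0.17 ± 0.15 for *Fer1HCH* (10.88 ± 0.27 in the mutant, SD, n = 4; 11.04 ± 0.15 in wild type, SD, n = 3). It was 0.21 ± 0.19 for *Fer2LCH* (10.36 ± 0.32 in the mutant, SD, n = 4; 10.15 ± 0.24 in wild type, SD, n = 3). Errors of differences are SE. Both differences were close to their standard error and to the spread between arrays, and their size depended on single arrays. Without mutant replicate 3 they were -0.29 for *Fer1HCH* and 0.06 for *Fer2LCH*, and without wild type replicate 1 they were -0.25 and 0.06. The other extremes were -0.09 for *Fer1HCH* without mutant replicate 2 and 0.31 for *Fer2LCH* without mutant replicate 4.

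The distance between the ferritin chains was smaller in the mutant on every array. This measure was chosen after the values were seen and has no test. *Fer1HCH* minus *Fer2LCH* was 0.54, 0.40, 0.46 and 0.67 on mutant replicates 1 to 4, against 1.00, 0.83 and 0.84 on wild type replicates 1 to 3. The difference of -0.37 on the log2 scale is a 1.29-fold higher heavy to light balance in wild type, and it ran from -0.42 to -0.31 when each array was left out in turn. The groups did not overlap in this distance although they did for each chain.

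**Figure D4:**
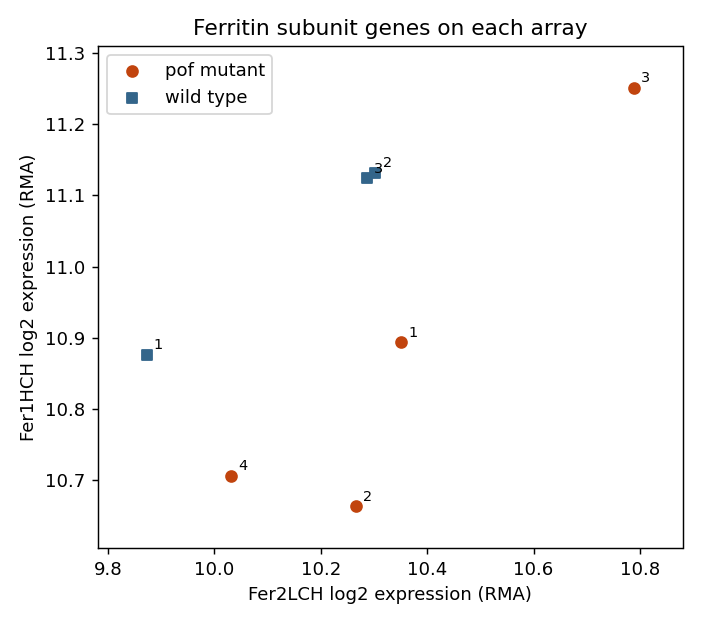
*Fer1HCH* (vertical axis) against *Fer2LCH* (horizontal axis), log2 expression (RMA), with 1 point per array numbered by replicate, circles for pof mutant and squares for wild type. The chains rise together within each group, apart from mutant replicates 2 and 4, and the wild-type arrays lie above the mutant arrays at a given *Fer2LCH* value, at a distance of 0.83 to 1.00 in place of 0.40 to 0.67.

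*Tsf1* and *Mvl* showed little. *Tsf1* (143958_at, X) had 7.60, 7.57, 7.54 and 7.91 on mutant replicates 1 to 4, against 7.69, 7.92 and 7.78 on wild type replicates 1 to 3, a log2 difference of -0.14 ± 0.11 (SE). Of the mutant arrays 3 lay below all wild-type arrays, and replicate 4 was level with the highest of them. The difference was -0.22 without mutant replicate 4 and -0.08 without wild type replicate 2. *Mvl* (143674_at, 3R) had 5.90, 6.10, 6.06 and 6.01 on mutant replicates 1 to 4, against 5.94, 6.04 and 6.07 on wild type replicates 1 to 3. Its difference was -0.0016 ± 0.07 (SE), and its groups spanned nearly the same range. Over the 8 probe sets 3 had a higher and 5 a lower mean in the mutant, with a median of -0.04, against 42% higher and a median of -0.02 over all probe sets.

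A wider set of metal handling genes was looked at in the same fit. Of 56 further genes in lists for metallothioneins, copper, zinc and iron handling and antioxidant defence, 47 were measured. By limma 0 of 47 passed an adjusted p of 0.05 over all probe sets, beside 0.0644% of all probe sets. At so small a share most lists of this length would hold none, so nothing is read from the count. An unadjusted p under 0.05 was found for 2 of the 47 (4.26%, against 5.43% of all probe sets). With array weights, which gave wild type replicate 2 a weight of 17.1 and wild type replicate 1 one of 0.142, 4 passed. That is 8.51%, close to the 8.59% of all probe sets that passed in the same fit, so the count says nothing particular about these genes (*Irp-1B*, *fh* and *Coprox*, lower, and *Gclm*, higher). Of the 47, 23 had a higher and 24 a lower mean in the mutant, with a median of -0.00083. The groups did not overlap for 6 of the 47, a larger share than the 6% of all probe sets, and this was not tested. Of these 6, 4 were iron genes and 2 were zinc transporter genes, with both directions in each list. The iron genes *Mco1* and *fh* were lower in the mutant. *Tsf3* (0.13) and *Fer3HCH* (0.09) were higher, and both were dim, with means over all arrays of 4.48 and 4.28. Of the zinc transporter genes *Catsup* was lower and *ZnT86D* higher.

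The third metallothionein on the array, *MtnC* (150257_at, 3R), was dim and differed by 0.02 ± 0.10 (SE; limma, adjusted p = 0.983; 95% interval -0.20 to 0.25). It was 4.31 to 4.43 on the mutant arrays and 4.14 to 4.53 on the wild-type arrays, so the groups overlapped. A change of the size seen for *MtnA* or *MtnB* lies outside that interval, but low signals are compressed by RMA. *MtnD*, *MtnE* and *MtnF* were not analysed here.

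Copper genes lay close together, with 4 of 8 higher and 4 lower and a median of 0.02. *Ctr1B*, a copper importer that MTF-1 activates when copper is scarce, was 8.07 to 8.30 in the mutant and 8.10 to 8.14 in wild type, which differ by 0.10 ± 0.07 (SE; adjusted p = 0.962 by limma). The copper chaperone gene *Atox1* differed by 0.16 ± 0.11, the importer *Ctr1C* by -0.10 ± 0.14 and *Scox*, which delivers copper to cytochrome oxidase, by -0.06 ± 0.09 (SE; limma, adjusted p of at least 0.962).

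Zinc transporter genes had 9 of 16 higher and 7 lower, with a median of 0.03. The ZIP family gene *Catsup* was 6.67 to 6.84 in the mutant and 6.88 to 7.19 in wild type, a difference of -0.20 ± 0.09 (SE; limma, adjusted p = 0.951). *ZnT49B* differed by 0.18 ± 0.09, *ZnT86D* by 0.16 ± 0.09 and *Zip89B* by 0.13 ± 0.08 (SE; limma, adjusted p = 0.962). *Zip102B*, the one of these genes on chromosome 4, differed by -0.0064 ± 0.08 (SE).

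Among 15 other iron genes 4 were higher and 11 lower, with a median of -0.05. *Mco1*, a multicopper oxidase gene implicated in fly iron balance, was 5.44 to 5.67 in the mutant and 5.76 to 5.93 in wild type, without overlap. It differed by -0.30 ± 0.09 on the log2 scale (SE; by limma, adjusted p = 0.62; unadjusted p = 0.011). The frataxin gene *fh*, needed for iron-sulphur cluster assembly, differed by -0.18 ± 0.08. The haem synthesis genes *FeCH* and *Coprox* differed by -0.15 ± 0.07 and -0.17 ± 0.09 (SE; limma, adjusted p of at least 0.925 for these 3). The other probe set of *FeCH* differed by -0.07 ± 0.10. *Irp-1A*, an iron regulatory protein that binds ferritin mRNA in flies, differed by -0.05 ± 0.16 on 142046_at and by 0.15 ± 0.14 on 142834_at, its other probe set (SE).

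Of 7 antioxidant genes 5 were higher and 2 lower. *Gclm*, a subunit of the enzyme that makes the glutathione precursor, differed by 0.30 ± 0.11 (SE; limma, adjusted p = 0.842; unadjusted p = 0.0316). The extracellular superoxide dismutase gene *Sod3* differed by 0.52 ± 0.31 on its brightest probe set (142399_at), with overlapping groups. Its other probe sets differed by 0.08 ± 0.07 (141909_at) and -0.04 ± 0.07 (142398_at), so the gene's value rests on 1 probe set. *Trxr1* differed by 0.09 ± 0.07 and *Sod2* by -0.07 ± 0.12 (SE; limma, adjusted p of at least 0.962 for these 2 and for 142399_at).

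**Figure D5:**
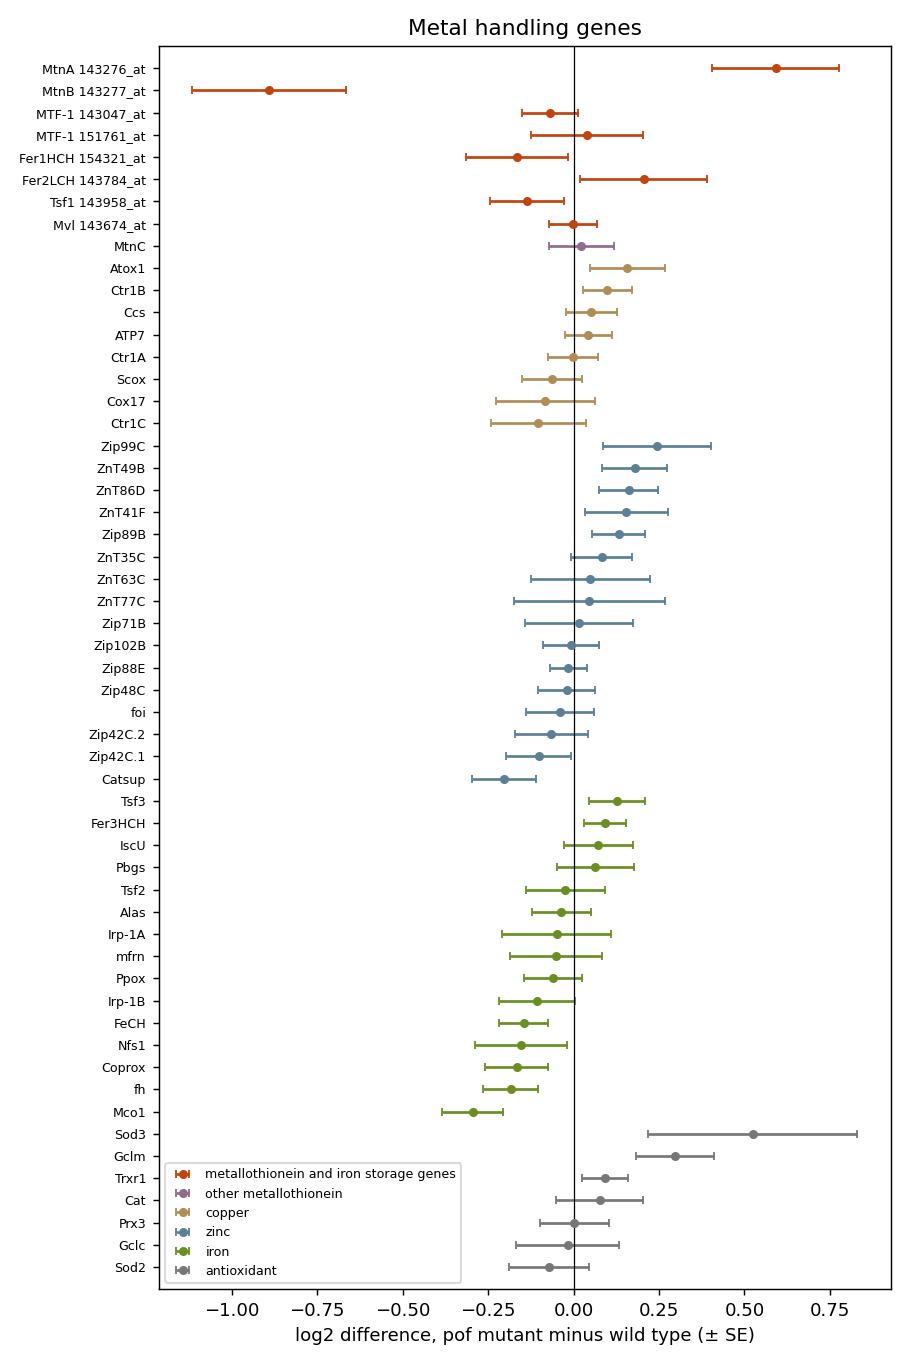
Log2 difference, pof mutant minus wild type (horizontal axis), with its SE for the 8 probe sets and for the 47 further metal and antioxidant genes, 1 probe set a gene, coloured by list. *MtnA* (0.59) and *MtnB* (-0.89) lie farthest from 0, and the 47 others lie between -0.30 and 0.52, the upper value being 1 of 3 probe sets of *Sod3*.

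Genes whose profile over the 7 arrays came nearest to each metallothionein were found among 10838 genes by the mean absolute difference of centred log2 values. For *MtnA*, whose own mean deviation was 0.30, these were *CG9701*, *CG2930*, *maf-S*, *CG18179* and *CG11368*, at distances of 0.12 to 0.13. Their log2 differences between mutant and wild type were 0.41 to 0.45. For *MtnB*, whose own mean deviation was 0.44, they were *SrpRalpha*, *Cyp6a21*, *CG8157*, *BomS4* and *AANATL3*, at distances of 0.14 to 0.20. Their differences were -1.17 to -0.61. *maf-S* encodes a small Maf factor, *SrpRalpha* a receptor subunit for the signal recognition particle, *Cyp6a21* a cytochrome P450 and *BomS4* an immune-induced peptide. Their likeness includes the group difference by which *MtnA* and *MtnB* were chosen, so it carries no test.

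Markers of tissues that handle metals were set beside these values. The mean log2 level of 8 of 9 midgut enterocyte markers was 9.28 to 9.96 on the mutant arrays and 9.13 to 9.46 on the wild-type arrays. Of these 8, *betaTry* (1.37) and *LManI* (0.53) were higher and *Jon25Bi* (-0.48) lower in the mutant without overlap. For 3 of 4 midgut copper cell markers, *dve*, *Vha100-4* and *Ptx1*, the mean was 5.43 to 5.83 in the mutant and 5.36 to 5.72 in wild type. Fat body markers (6 of 7) averaged 8.88 to 8.95 in the mutant and 8.68 to 8.93 in wild type, and within them *FASN1* (0.37) and *Desat1* (0.46) were higher and *Tps1* (-0.52) lower in the mutant without overlap. These 3 of 8 enterocyte and 3 of 6 fat body markers stand beside 6% of all probe sets without overlap, and none of the markers in any list passed limma's threshold. Haemocyte markers (7 of 8) averaged 5.13 to 5.31 in the mutant and 5.26 to 5.47 in wild type. Malpighian tubule markers (3 of 6) averaged 7.21 to 7.59 in the mutant and 7.05 to 7.65 in wild type. The mean of every list overlapped between the groups. The lowest of all values was 2.62, so a level above 0 does not show that a marker is expressed. The haemocyte markers *eater* (3.58) and *NimC1* (3.75) had means over all arrays near the level of *Pof*. The haemocyte marker *srp* (4.12) and the copper cell marker *Ptx1* (4.29) were also dim. So were the enterocyte marker *LManI* (4.79) and the copper cell marker *dve* (4.94). The part of these tissues in the metallothionein values was not tested. In RNA from whole larvae, fewer cells of a type and less RNA per cell cannot be told apart.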

How the data were processed

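Pools of pof mutant (4) and wild-type (3) larvae were grouped by sample title. The deposited values are log2 expression values. The authors made them with RMA, as the submitters' processing notes say without a version. They ran from 2.62 to 14.5 and were used as deposited. Probe sets were named through the platform annotation and updated by gene identifier from RefSeq (Release 6), where 12394 of 12443 probe sets with 1 gene matched. No coordinates or sequences are printed. A gene with several probe sets was represented by the one with the highest mean, except for the 7 genes described, for which all are given.

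All 13966 probe sets other than the 44 controls were fitted, mutant over wild type and without covariates, by lmFit and eBayes of limma 3.58.1 (R 4.3.3). P-values were adjusted over all of them by Benjamini and Hochberg, with a threshold of 0.05, and each SE is the moderated one. The steps were tested on simulated data. The number of arrays limits the precision.

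The genes and lists were chosen with earlier results of these data known. Named are all probe sets of the 7 genes, *MtnC*, up to 4 genes per list with the smallest p, and the 5 nearest profiles of each metallothionein. Chosen after their values were seen or for their role were *Zip102B*, *Irp-1A*, *Irp-1B*, *Tsf3*, *Fer3HCH*, the copper cell markers, markers without overlap and dim haemocyte markers. The replicate numbers were not used to pair the arrays in the main fit. Alternatives were another quantile normalization, median centring, a mean level of at least 6, a replicate block, eBayes with trend and robust, array weights, the 3' minus 5' covariate, an adjusted p of 0.01, averaged probe sets and leaving out each array. Python 3.11.15 and matplotlib 3.10.9 drew the figures.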

Additional observations from a re-analysis of the deposited data

Results flagged for a closer look

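The 4 mutant arrays were examined for single arrays far from the rest, over 55 probe sets, and 7 had one beyond the 95% limit of Dixon's test. By chance about 1 in 20 would be, or 2.75. Groups of 3 arrays were not examined. The *MTF-1* probe set 151761_at was low on mutant replicate 4, at 7.02, where the other mutant arrays had a median of 7.39. *Tsf1* was high on the same array, at 7.91 against 7.57. On replicate 3 *Atox1* was 7.63 against 7.32, *Catsup* 6.67 against 6.83 and *Ppox* 7.25 against 7.31. On replicate 2 *ZnT86D* was 5.85 against 5.66. On replicate 1 *Zip88E* was 6.99 against 7.05.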

How the results depend on the processing

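*MtnA*, *MtnB*, *Fer1HCH*, *Fer2LCH* and *Tsf1* kept the sign of their difference under all 14 alternatives run on them, and *MtnA* and *MtnB* moved by less than the spread between arrays in each. *MTF-1* kept its sign in 12 (143047_at) and 11 (151761_at) of 14, and *Mvl*, which lay at 0, in 6 of 14. With array weights the *MTF-1* probe set 143047_at was 0.04. Over all probe sets 9 passed the threshold. This was 2 with the replicate block, 4 at an adjusted p of 0.01, 86 with the 3' minus 5' covariate and 1200 with array weights, and 0 to 34 when each array was left out, with 0 without pof mutant replicate 1 and 34 without wild type replicate 1. Of the 47 other metal genes, 4 passed with array weights and 0 in each other alternative. The array weights did not converge fully and rest mostly on 1 wild-type array. Deviations of same-numbered arrays from their group means correlated at 0.25, -0.57 and 0.56 for numbers 1 to 3, with no common sign. These values cannot show whether same-numbered pools were raised or processed together, since many probe sets also followed the 3' minus 5' signal. With the replicate block *MtnA* differed by 0.68 and *MtnB* by -0.83, the values of a fit that leaves out the unpartnered pof mutant replicate 4.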
